A study of Mus musculus with 10 samples.

Results

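The 10 genes described here are a set of mast cell proteases, receptors and enzymes, Cma1, Mcpt4, Cpa3, Tpsb2, Tpsab1, Kit, Fcer1a, Ms4a2, Hdc and Mrgprb2, taken by gene name from the 36009 genes of the count table. The set was chosen by measured values of these same tumors, from the difference between responders and non-responders, so that difference is given for its members as a description, with no p. PolyA RNA was sequenced from 10 CT26 tumors, a mouse colorectal carcinoma line grown subcutaneously in female wild-type (WT) BALB/c mice. The labels place 6 tumors with responders (RS), whose disease regressed completely once a hydrogel with poly(I:C), a synthetic double-stranded RNA, had been put on the residual tumor, and 4 with non-responders (NR), whose tumors grew on without delay. Every library came from tumor tissue resected before the hydrogel was placed and is labelled untreated in both groups. All tumors came from 1 cell line in 1 mouse strain, mice bought for this work were 8 to 12 weeks old, and no separate mast cell preparation was made, so the values are those of whole tumor tissue. In such tissue fewer mast cells and less RNA per mast cell cannot be told apart.

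Mast cells are tissue-resident granulocytes that depend on stem cell factor and its receptor KIT. They carry IgE on the high-affinity receptor FceRI and, when it is crosslinked, release granules that hold histamine, heparin-like proteoglycans and very large amounts of proteases. In the mouse, mast cells of skin and other connective tissue are known for the chymases encoded by Cma1 and Mcpt4, the tryptases encoded by Tpsb2 and Tpsab1, carboxypeptidase A3 and the receptor MRGPRB2, whereas mast cells of mucosa are known for the chymases encoded by Mcpt1 and Mcpt2.

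Total estimated counts ran from 29065126 to 38042544 in responders and from 23374649 to 32986456 in non-responders. Levels are given as CPM, the rounded estimated count of a gene per 1000000 counts of its TMM-scaled library. A count of 3, the limit that a count of 0 allows, was 0.0783 to 0.130 CPM, for counting error only, and each member was above it in every tumor. The rounded count of a member in a tumor ranged from 5 to 78 for Mrgprb2, from 7 to 81 for Fcer1a and from 19 to 129 for Ms4a2, and its lowest was 40 or more for the other 7, so the first 3 are the least precise. All 10 members passed the filter on low counts, which kept 16041 genes. Responder 5 and non-responder 1 were the extremes of most members, and each was also left out. Epithelial markers were close to 0 in these tumors, with Krt8 at no more than 0.565 CPM and Krt18 at no more than 0.0936 CPM in any tumor, while Cdh1 was at 2.63 to 7.03 CPM.

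The stretches of 250 bases before the transcription start are shown for 3 proteases, because Cma1, Mcpt4 and Cpa3 varied together from tumor to tumor, and for Ms4a2, the member with the most matches to the GATA motif. GATAA was searched on both strands, so that a match on the other strand appears as TTATC, and its matches are in capitals. A second motif searched was the E-box CANNTG, which reads the same on both strands. GATA2 is a transcription factor that mast cells need, and its family binds such letters. Sequences and starts are from RefSeq on GRCm38.p6, which held 8 of the 10 members, all but Tpsb2 and Tpsab1. All 4 are on the minus strand and written 5′ to 3′, at chr14:55944676-55944925, chr14:56062311-56062560, chr3:20242182-20242431 and chr19:11623720-11623969 in the order shown.
Cma1: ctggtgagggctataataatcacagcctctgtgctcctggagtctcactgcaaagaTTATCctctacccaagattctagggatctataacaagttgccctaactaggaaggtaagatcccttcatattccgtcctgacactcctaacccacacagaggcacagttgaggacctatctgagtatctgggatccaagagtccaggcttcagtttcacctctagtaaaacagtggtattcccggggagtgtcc
Mcpt4: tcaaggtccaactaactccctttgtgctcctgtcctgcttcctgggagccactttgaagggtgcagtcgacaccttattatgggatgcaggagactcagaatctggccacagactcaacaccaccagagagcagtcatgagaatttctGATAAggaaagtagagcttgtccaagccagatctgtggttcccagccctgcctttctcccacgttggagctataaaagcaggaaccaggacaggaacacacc
Cpa3: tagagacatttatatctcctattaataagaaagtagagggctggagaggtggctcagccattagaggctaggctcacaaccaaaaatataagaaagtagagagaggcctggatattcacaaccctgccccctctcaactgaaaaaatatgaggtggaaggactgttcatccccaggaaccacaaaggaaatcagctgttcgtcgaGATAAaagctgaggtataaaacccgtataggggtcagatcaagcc
Ms4a2: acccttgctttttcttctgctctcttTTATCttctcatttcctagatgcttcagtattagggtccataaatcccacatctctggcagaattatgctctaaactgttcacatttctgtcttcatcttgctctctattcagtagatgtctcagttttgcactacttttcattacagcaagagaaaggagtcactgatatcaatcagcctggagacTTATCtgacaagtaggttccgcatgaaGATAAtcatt

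GATAA was found in 6 of the 8 member windows, with 3 matches before Ms4a2, 1 each before Cma1, Mcpt4, Cpa3, Fcer1a and Mrgprb2, and none before Kit and Hdc. Of all 32851 windows of that length in the RefSeq table, 22.6% held it. CANNTG was in 5 of the 8 member windows and in 66.2% of all windows. Of the 8 GATAA matches before members, 0 overlapped a CANNTG match. These are matches of letters, and binding was not measured.

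The chymase genes lie in the same cluster of chromosome 14. Cma1 (ENSMUSG00000022225, chromosome 14, 55941451 to 55944675, minus strand of GRCm38) was at 3.53, 5.50 and 18.0 CPM in the lowest, median and highest responder. In non-responders 1 to 4 it was at 1.74, 3.10, 1.73 and 2.35 CPM. Every responder lay above every non-responder, although the lowest responder and the highest non-responder were close, and responder 5 stood well above the rest. The means were 7.94 ± 5.44 CPM across responders (n = 6, SD) against 2.23 ± 0.648 CPM across non-responders (n = 4, SD), a log2 fold change of 1.82 (SE 0.46). Mcpt4 (ENSMUSG00000061068, chromosome 14, 56059629 to 56062313) was at 17.3, 23.3 and 56.6 CPM in the lowest, median and highest responder and at 8.52, 22.8, 11.3 and 15.9 CPM in non-responders 1 to 4. Only 3 of 6 responders exceeded every non-responder, and the log2 fold change was 0.98 (SE 0.35). Estimated counts can be split between genes with shared sequence: 10.6% of the 31-base words of the Cma1 transcripts also occur in those of another gene, all of them in Gm48934, and 12.2% of those of Mcpt4, mainly in Cma2 and Mcpt9.

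Cpa3, the granule carboxypeptidase A3, was the other member whose groups did not overlap. Cpa3 (ENSMUSG00000001865, chromosome 3, 20215620 to 20242181) was at 7.10, 10.4 and 31.4 CPM in the lowest, median and highest responder. In non-responders 1 to 4 it was at 2.79, 6.94, 3.69 and 5.64 CPM. Responder 4, the lowest of its group, and non-responder 2, the highest of its own, were nearly level. The log2 fold change was 1.56 (SE 0.44), and no 31-base word of Cpa3 was shared with another gene.

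The tryptase genes are neighbours on chromosome 17 and encode trypsin-like granule proteases that are stored with heparin. Tpsb2 (ENSMUSG00000033825, 25366305 to 25369098) was at 11.7, 17.7 and 49.4 CPM in the lowest, median and highest responder and at 6.90, 14.0, 7.67 and 9.50 CPM in non-responders 1 to 4. Tpsab1 (ENSMUSG00000024173, 25343245 to 25345562) was at 17.5, 29.6 and 81.0 CPM in the lowest, median and highest responder and at 9.89, 27.1, 10.6 and 17.5 CPM in the non-responders. Both had overlapping groups, because non-responder 2 lay within the range of the responders. The log2 fold changes were 1.27 (SE 0.39) for Tpsb2 and 1.20 (SE 0.43) for Tpsab1. They share 9 of their 31-base words, 0.557% of those of Tpsb2, and the log2 fold change of the summed pair was 1.23. That of the summed chymases Cma1 and Mcpt4 was 1.13.

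The receptors covered here are the growth factor receptor, 2 chains of the IgE receptor and MRGPRB2. Kit (ENSMUSG00000005672, chromosome 5, 75574916 to 75656722), the stem cell factor receptor, was at 9.77, 12.3 and 17.5 CPM in the lowest, median and highest responder and at 6.26, 10.1, 8.84 and 7.24 CPM in non-responders 1 to 4. It had the narrowest spread within groups of the members, and 5 of 6 responders exceeded every non-responder, with a log2 fold change of 0.68 (SE 0.18). Fcer1a (ENSMUSG00000005339, chromosome 1, 173221284 to 173227214), the IgE-binding alpha chain, was at 0.726, 1.29 and 2.27 CPM in the lowest, median and highest responder and at 0.283, 1.05, 0.607 and 0.995 CPM in the non-responders. Ms4a2 (ENSMUSG00000024680, chromosome 19, 11615523 to 11623719), the signal-amplifying beta chain, with 4.03% of its words shared with other genes, was at 0.957, 1.96 and 3.61 CPM in the lowest, median and highest responder and at 0.929, 1.12, 0.824 and 1.48 CPM in the non-responders. For each chain 5 responders exceeded the highest non-responder and responder 4 lay among them. The log2 fold changes were 0.84 (SE 0.37) for Fcer1a and 0.89 (SE 0.33) for Ms4a2.

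Mrgprb2 (ENSMUSG00000050425, chromosome 7, 48550965 to 48558086), the receptor through which cationic peptides and several drugs trigger connective tissue mast cells without IgE, was at 0.297, 0.792 and 2.18 CPM in the lowest, median and highest responder. It was at 0.363, 0.523, 0.260 and 0.151 CPM in non-responders 1 to 4. Responders 2 and 4 lay within the range of the non-responders. The log2 fold change of 1.67 had the largest error of the members (SE 0.63).

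Hdc (ENSMUSG00000027360, chromosome 2, 126593667 to 126619299), histidine decarboxylase, which makes histamine in mast cells, basophils and other myeloid cells, was the member apart. It was at 13.2, 18.7 and 26.9 CPM in the lowest, median and highest responder and at 16.4, 21.2, 21.2 and 15.3 CPM in non-responders 1 to 4. The non-responders lay inside the range of the responders, and responders 3 and 5, the tumors with the most protease RNA, were the lowest of all 10. The log2 fold change was 0.07 (SE 0.21).

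**Figure D1:**
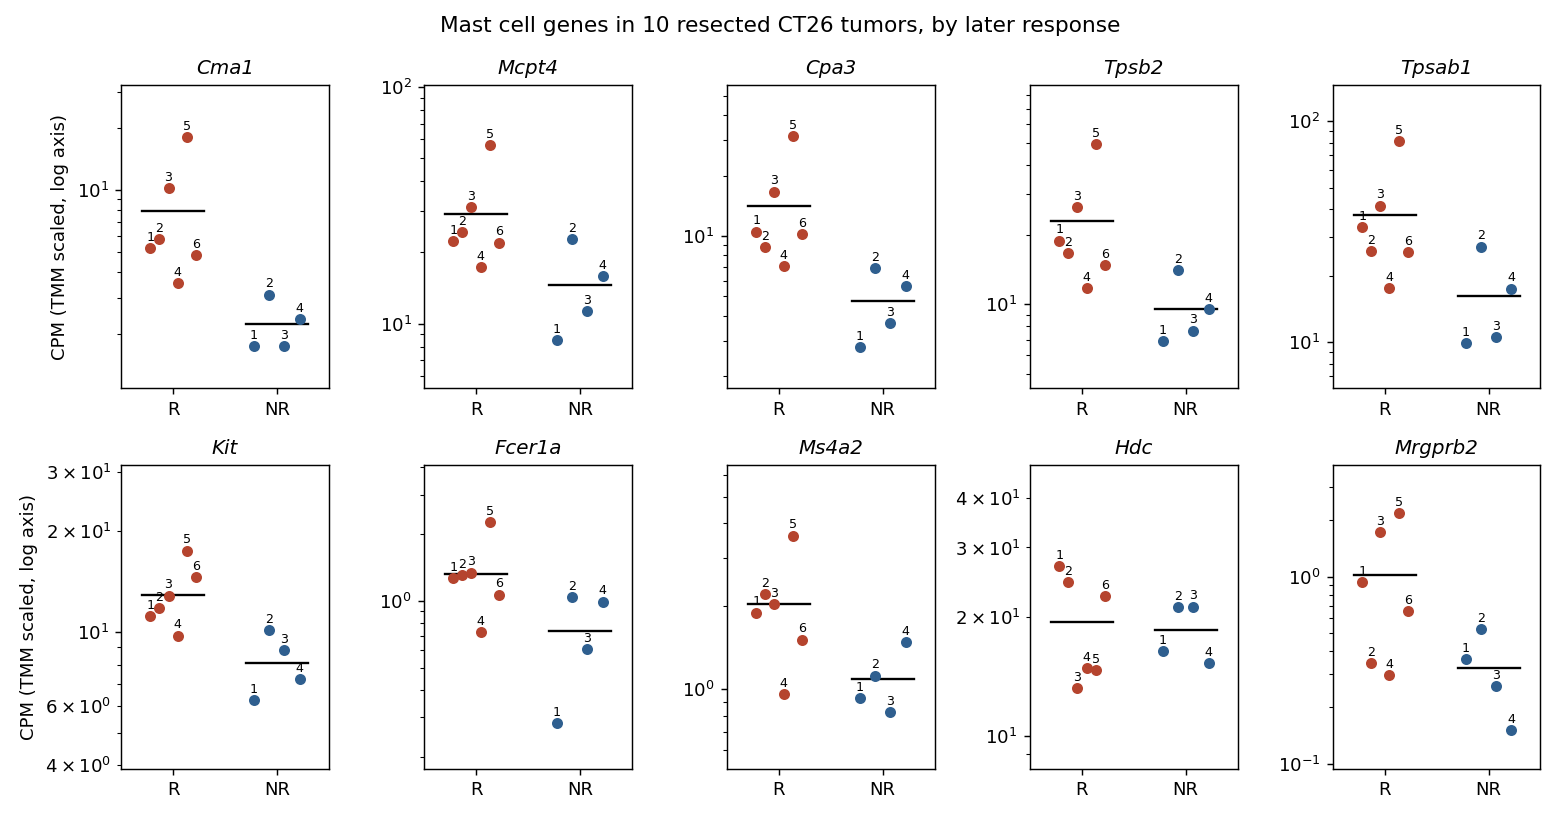
Level of each member in every tumor, as TMM-scaled CPM on a log axis, with responders (R, n = 6) and non-responders (NR, n = 4) as points labelled by tumor number and a line at the group mean. Responder 5 is the highest point for 9 of 10 members, and the groups are apart only for Cma1 and Cpa3.

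Across the members, the log2 fold change was positive for all 10, although that of Hdc was negative, at -0.04 or closer to 0, without responder 1, responder 2 or non-responder 4, with a median of 1.09, where the median over all 16041 genes tested was -0.01. Of the 10 members, 2 were called by edgeR (an adjusted p under 0.05, in either direction), Cma1 and Kit, where 8.06% of all genes tested were called. Groups with every responder above every non-responder were found for 2 of 10 members and for 5.84% of all genes tested. Since this contrast chose the members, nothing is read from these counts. They also moved with single tumors, as did the calls over all genes. Without responder 4 or non-responder 2, the count of members called was 5 and 4, with 1619 and 1897 of all genes called. Without responder 5 or 6 it was 1, with 412 and 735 of all genes called. Without any of the other 6 tumors it was 0, with 0 to 553 of all genes called. In those 6 fits, 4 to 8 members and 3654 to 4458 of all genes had an unadjusted p under 0.05. DESeq2 called 5 members and 2584 of all genes, where edgeR called 2 members and 1293 of all genes. Responder 5 was the highest tumor for 9 members and non-responder 1 the lowest for 6. The pooled SD of log2 CPM within groups was 0.71 for Cma1 and Cpa3 and 0.93 for Mrgprb2, against 0.30 for Kit and 0.38 for Hdc.

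Ratios between the proteases also varied from tumor to tumor. These ratios were chosen after the values were seen and are given with no test. Since the members were chosen on this contrast, nothing is read from groups that lie apart. How often ratios of other genes separate the groups was not counted. Cma1 was at 0.257 ± 0.0530 times the CPM of Mcpt4 in responders (SD, n = 6) and at 0.160 ± 0.0299 times in non-responders (SD, n = 4). The lowest responder, at 0.205, was barely above the highest non-responder, at 0.204. Cpa3 was at 0.467 ± 0.0725 times the CPM of Mcpt4 in responders and at 0.328 ± 0.0210 times in non-responders, again with every responder above. The ratio of the tryptases had nearly equal group means, with Tpsb2 at 0.617 ± 0.0394 times Tpsab1 in responders and 0.621 ± 0.106 times in non-responders. The 2 chains of the IgE receptor did so too, with Fcer1a at 0.669 ± 0.0587 times Ms4a2 in responders and 0.662 ± 0.263 times in non-responders, where non-responder 1 was at 0.304 from few counts.

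Mcpt1 and Mcpt2, the mucosal type chymases, are not members, and their genes lie between Cma1 and Mcpt4 on chromosome 14. Mcpt1 (56017971 to 56020384) was at 13.4 ± 6.49 CPM across responders (n = 6, SD) against 13.7 ± 7.66 CPM across non-responders (n = 4, SD), with a log2 fold change of -0.05 (adjusted p = 0.957 by edgeR, SE 0.43). Mcpt2 (56042041 to 56044642) was at 4.81 ± 2.39 CPM and 5.06 ± 2.24 CPM, with a log2 fold change of -0.08 (adjusted p = 0.913 by edgeR, SE 0.37). These standard errors are as large as those of the members. Relative to Mcpt4, Mcpt2 was at 0.102 to 0.217 in responders and 0.307 to 0.407 in non-responders, with no overlap, and Mcpt1 was at 0.179 to 0.714 and 0.626 to 1.36, with overlap. The difference between these fold changes and that of Mcpt4 was not tested, and these ratios too were chosen after the values were seen.

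**Figure D2:**
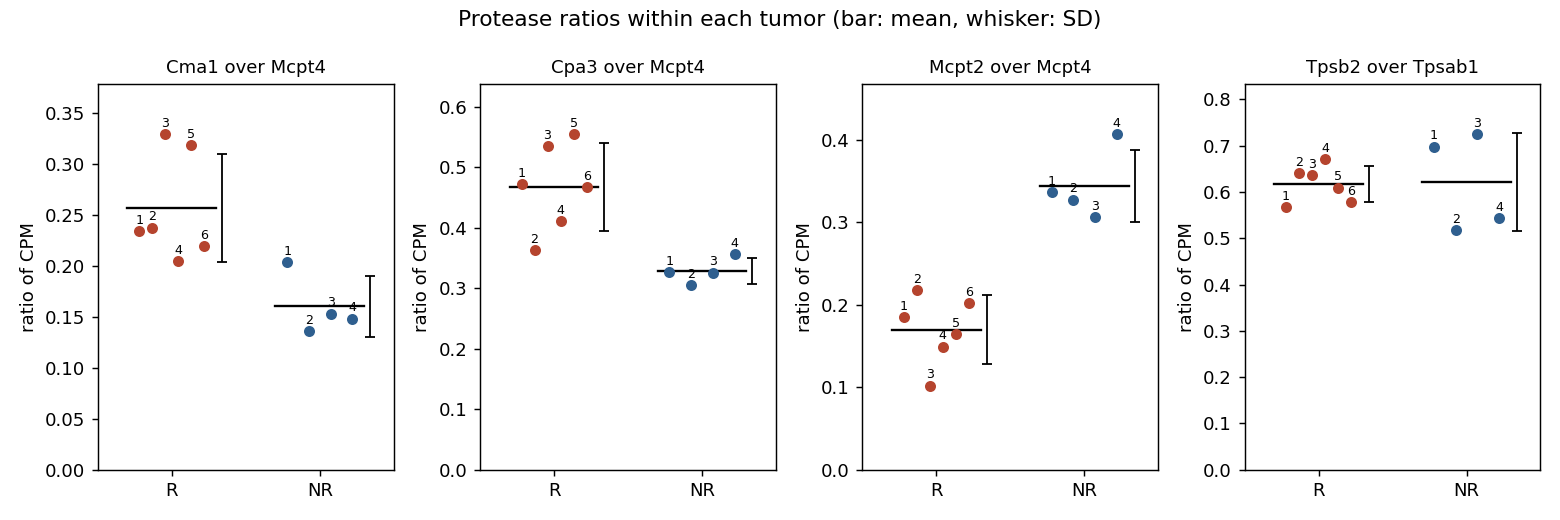
Ratio of CPM between proteases within each tumor, for responders (R, n = 6) and non-responders (NR, n = 4), with points labelled by tumor number, a line at the group mean and a whisker of 1 SD. Cma1 and Cpa3 relative to Mcpt4 lie higher in every responder and Mcpt2 lower, while the tryptase ratio has means of 0.617 and 0.621. The ratios were chosen after the values were seen and carry no test.

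The other genes of that cluster that averaged at least 1 CPM encode granzymes of cytotoxic lymphocytes. By edgeR none of these 6 passed the test (adjusted p = 0.102 to 0.896), 1 had an unadjusted p under 0.05 and DESeq2 called 0. An unadjusted p under 0.05 was found for 4665 of all 16041 genes tested. Gzmb (chromosome 14, 56258838 to 56262260) was at 59.6 ± 18.2 CPM across responders (n = 6, SD) against 31.3 ± 16.6 CPM across non-responders (n = 4, SD), a log2 fold change of 0.93 (adjusted p = 0.102 by edgeR, SE 0.34). Gzmc, Gzmd, Gzme, Gzmf and Gzmg averaged 6.74, 3.18, 1.93, 4.94 and 1.95 CPM, with log2 fold changes of 0.26, -0.17, -0.14, 0.28 and -0.79. Mcpt8, a basophil protease of the same cluster, averaged 0.412 CPM.

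The order of levels does not use the response and was tested over all 10 tumors. CPM per kb of the longest annotated transcript averaged 20.9 ± 12.1 for Mcpt4, 15.02 ± 10.8 for Tpsab1, 13.6 ± 9.75 for Tpsb2, 7.16 ± 5.78 for Cpa3 and 5.19 ± 4.61 for Cma1 (SD, n = 10). Next on the mean came Hdc at 4.22 ± 1.06, Kit at 2.10 ± 0.646, Fcer1a at 1.09 ± 0.534, Ms4a2 at 0.693 ± 0.352 and Mrgprb2 at 0.357 ± 0.329 CPM per kb. Neighbours in this order were compared within tumors by an exact two-sided sign-flip permutation test of log2(CPM per kb + 0.01), adjusted over the 9 pairs. The order came from these same tumors, so the pairs were not fixed beforehand. In 8 pairs the levels differed, with an adjusted p from 0.00352 to 0.0483. The closest of these was Tpsab1 over Tpsb2, at a mean log2 difference of 0.12 ± 0.16 (SD), higher in 7 of 10 tumors (exact p = 0.043, adjusted p = 0.0483). With the merged length of all exons in place of the longest transcript, 7 pairs differed, in the same order of means. The merged length is 8911 bases for Kit, against 5241 for its longest transcript, while Fcer1a has 998 by either. Cma1 and Hdc did not differ beyond their spread, with a mean log2 difference of -0.06 ± 1.21 (SD, exact p = 0.873, adjusted p = 0.873), and their order on the mean turned without responder 5. Hdc was above Cma1 in 8 of 10 tumors, all but responders 3 and 5. The raw p of 0.00195 that 5 pairs share is the smallest 10 tumors can give. The chymase Mcpt4 was above Tpsab1 in 10 of 10 tumors, and each receptor was below each protease on the mean.

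**Figure D3:**
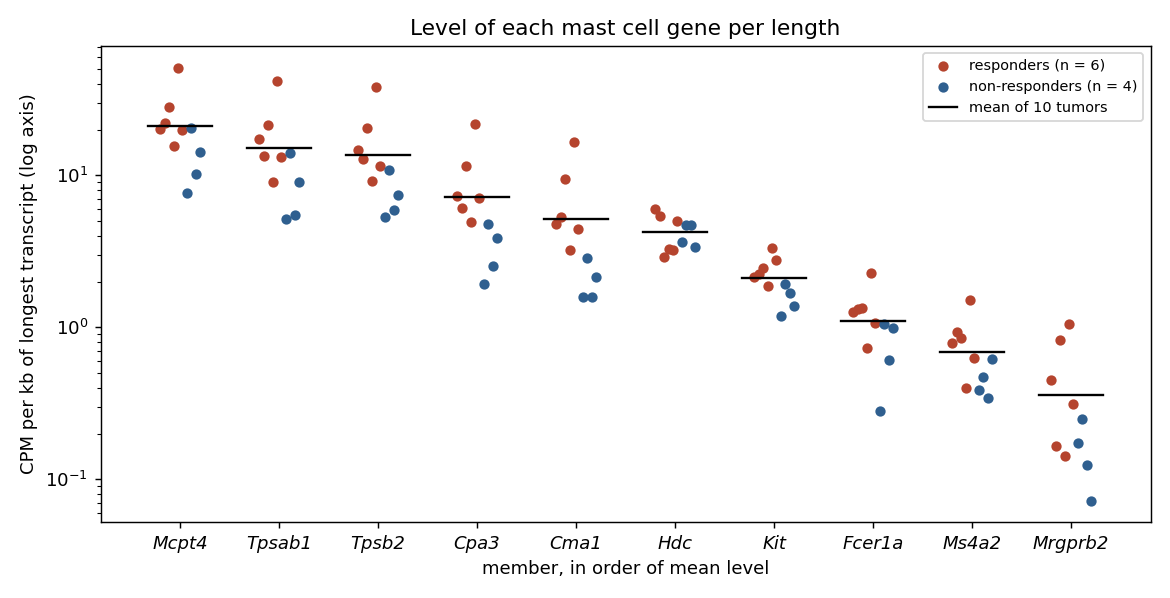
Level of each member as CPM per kb of its longest transcript, on a log axis, in order of the mean of 10 tumors (line), with 1 point per tumor, responders in red and non-responders in blue. The means fall from 20.9 for Mcpt4 to 0.357 for Mrgprb2, and Hdc shows the narrowest range.

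From tumor to tumor, 9 of the 10 members varied together and Hdc did not, and many other genes varied with them. With group means removed, Pearson r of log2 CPM between a member and the mean of the others was 0.97 for Tpsab1, 0.96 for Tpsb2, 0.95 for Mcpt4 and Cpa3, 0.92 for Cma1, 0.86 for Fcer1a, 0.81 for Ms4a2, 0.79 for Kit and 0.69 for Mrgprb2 over 10 tumors. For Hdc it was -0.20. Without responder 5 and non-responder 1, the extremes for most members, the proteases stayed at 0.89 to 0.94, Fcer1a was at 0.87, Mrgprb2 at 0.73, Ms4a2 at 0.67, Kit at 0.50 and Hdc at -0.01. Over the 36 pairs of members without Hdc, r was 0.42 to 0.98 with a median of 0.81. Over 10 tumors, some of 16031 non-members had a higher r with the mean of the other members than the member itself. They numbered 4 to 17 for the tryptases, Mcpt4 and Cpa3, 56 for Cma1 and 208 for Fcer1a. For Kit, Ms4a2 and Mrgprb2 they numbered 576, 593 and 1517. These are descriptions over tumors that also share depth and tissue makeup, with no p.

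The members themselves were left out when genes were ranked by likeness to their mean. The 10 most like it were Daglb, Ssh3, Anxa6, Stxbp2, Lilra6, Myl4, Rnf130, Ctsh, Sptlc2 and Calhm2, with r from 0.96 to 0.98 over 10 tumors, group means removed. All 10 were highest in responder 5 and lowest in non-responder 1. Stxbp2 encodes a syntaxin-binding protein used in granule release, Anxa6 an annexin, Daglb a lipase that makes an endocannabinoid, and Ctsh cathepsin H. The choice was loose: with Spearman's correlation none of the 10 stayed among the first 10, without any 1 tumor 4 to 8 did, and without both responder 5 and non-responder 1 it was 3. Of the other mast cell pathway genes, those most like it were Pirb at rank 12, Mrgprb1 at 30 and Hpgds at 39 of 16031 genes. Mcpt2 ranked 284, with r of 0.85, and Mcpt1 1946, with r of 0.63. Other pathway genes were unlike it, with Srgn at rank 3212, Mitf at 10468, Gata2 at 13166, Plcg1 at 13889 and Runx1 at 14491.

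Around the members, 69 genes of mast cell biology were examined in 8 groups, of which 56 passed the filter on low counts. Of these, 18 were higher in responders, 2 were lower and 36 did not pass the test (edgeR adjusted p under 0.05), where 4.71% of all genes tested were higher and 3.35% lower. The median log2 fold change of the 56 was 0.30. The list was drawn up with earlier results of these data known, so its counts are a description and no test of the group. Most of them are used by macrophages and lymphocytes as well. The higher count rested on single tumors, as did the calls over all genes. It was 0 without responder 3, non-responder 1 or non-responder 4, where 17, 16 and 0 of all genes were called. There 31 to 33 pathway genes and 3654 to 4106 of all genes had an unadjusted p under 0.05. It was 2 without non-responder 3 (366 of all genes called), 4 without responder 2 (244), 5 without responder 1 (553) or responder 5 (412) and 8 without responder 6 (735). The lower count was 2 without responder 1, 4 or 6 or non-responder 2, 1 without responder 5 or non-responder 3, and 0 without responder 2, responder 3, non-responder 1 or non-responder 4.

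The signaling chain below the IgE receptor held the most calls, with 8 of 12 genes higher and 1 lower. Fcer1g, the gamma chain that FceRI shares with Fc receptors of macrophages, was at 184.2 ± 34.1 CPM across responders (n = 6, SD) against 112.9 ± 27.2 CPM across non-responders (n = 4, SD), a log2 fold change of 0.71 (adjusted p = 0.0372 by edgeR, SE 0.17). Lyn, the kinase that starts the cascade, was at 216.6 ± 21.8 and 157.5 ± 28.8 CPM, a log2 fold change of 0.46 (adjusted p = 0.0391 by edgeR, SE 0.11). Plcg2, a phospholipase C, had a log2 fold change of 0.40 (adjusted p = 0.0243 by edgeR, SE 0.08), and its relative Plcg1 fell by 0.23 on the log2 scale (adjusted p = 0.0283 by edgeR, SE 0.05). The kinases Btk and Fyn had log2 fold changes of 0.45 and 0.52, the adaptor Lat2 of 0.60 and the inhibitory phosphatase Inpp5d of 0.38, with edgeR adjusted p from 0.0372 to 0.0424. Syk, also called, was at 120.9 ± 23.1 and 84.8 ± 11.9 CPM. With each tumor left out in turn, edgeR called Plcg2 in 7 of 10 fits and Plcg1 in 5. It called Fcer1g in 3, and Lyn, Fyn, Btk, Lat2 and Inpp5d in 2 each. Gab2 and Lat did not pass the test by edgeR, with log2 fold changes of 0.09 and 0.83, and DESeq2 called Lat.

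Of 7 inhibitory receptors, 4 were higher. Milr1, an inhibitory receptor of mast cells also called allergin, was at 18.7 ± 1.72 CPM across responders (n = 6, SD) against 12.3 ± 2.03 CPM across non-responders (n = 4, SD), a log2 fold change of 0.61 (adjusted p = 0.0232 by edgeR, SE 0.11). Pirb, a receptor for class I MHC, had a log2 fold change of 0.64 (adjusted p = 0.0297 by edgeR, SE 0.14). Cd300a and Lilrb4a were also called, the latter with uncertain counts because its symbol is on 2 rows of the table whose genes overlap on chromosome 10. Fcgr2b, the inhibitory IgG receptor and the most abundant of the group at 448.9 CPM, did not pass (log2 fold change 0.44, adjusted p = 0.0777 by edgeR, SE 0.15), although DESeq2 called it.

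Of 6 lipid mediator genes, 2 were higher and 1 lower. Hpgds, the hematopoietic prostaglandin D synthase, was at 58.6 ± 6.74 CPM across responders (n = 6, SD) against 42.0 ± 5.24 CPM across non-responders (n = 4, SD), a log2 fold change of 0.48 (adjusted p = 0.0278 by edgeR, SE 0.10). Pla2g4a, which releases arachidonic acid, had a log2 fold change of 0.31 (adjusted p = 0.0446 by edgeR, SE 0.08). Ptgs1, the cyclooxygenase upstream of Hpgds, went the other way, at 182.7 ± 14.6 and 237.2 ± 27.9 CPM, and fell by 0.38 on the log2 scale (adjusted p = 0.0304 by edgeR, SE 0.08). The leukotriene genes Alox5, Alox5ap and Ltc4s did not pass, with log2 fold changes of 0.01, 0.06 and -0.50.

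Receptors for mast cell products were called higher in 3 of 6 genes tested. Agtr1a, the receptor of angiotensin II, which chymase can form, was at 0.777 ± 0.235 CPM across responders (n = 6, SD) against 0.295 ± 0.0818 CPM across non-responders (n = 4, SD), a log2 fold change of 1.42 (adjusted p = 0.028 by edgeR, SE 0.29) at low counts. The cysteinyl leukotriene receptors Cysltr1 and Cysltr2 had log2 fold changes of 0.38 (SE 0.10) and 1.01 (SE 0.24), with edgeR adjusted p of 0.0453 and 0.036. The histamine receptors Hrh1 and Hrh2 did not pass by edgeR, with log2 fold changes of -0.39 and 0.60, and DESeq2 called Hrh2. Among other receptors for degranulation, C3ar1, the receptor of the complement fragment C3a, was higher (log2 fold change 0.59, adjusted p = 0.0413 by edgeR, SE 0.15). Mrgprb1, a neighbour of Mrgprb2 in the same family, was at 4.51 ± 3.10 CPM in responders and 1.44 ± 0.455 CPM in non-responders and did not pass (log2 fold change 1.65, adjusted p = 0.0563 by edgeR, SE 0.48), although DESeq2 called it.

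No gene of the other 3 groups passed the test by edgeR. An unadjusted p under 0.05 was found for 4 of 20 genes tested, against 4665 of all 16041 genes. DESeq2 called 1, Csf2rb, and 2584 of all genes. Among granule contents, 7 of 11 were tested, led in level by Cd63, a granule membrane protein, at 324.1 CPM (log2 fold change -0.13, adjusted p = 0.111 by edgeR, SE 0.05), and Srgn, the proteoglycan core of the granule, had a log2 fold change of 0.28 (SE 0.14). Among growth factors and cytokines, 9 of 13 were tested. Il1rl1, the receptor of interleukin-33, was at 655.4 CPM, far above every member, with a log2 fold change of -0.16 (SE 0.14), while Csf2rb, the common beta chain used by the interleukin-3 receptor, had 0.29 (adjusted p = 0.0765 by edgeR, SE 0.09) and Kitl, which encodes stem cell factor, 0.38 (adjusted p = 0.112 by edgeR, SE 0.15). Il3, Il9 and Il13 averaged 0.0283, 0 and 0.174 CPM. Among transcription factors, Gata2 and Mitf, which mast cells need, had log2 fold changes of -0.16 (SE 0.12) and -0.15 (SE 0.08), and Runx1, with the highest level and the smallest p of its group, had 0.17 (adjusted p = 0.181 by edgeR, SE 0.08).

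**Figure D4:**
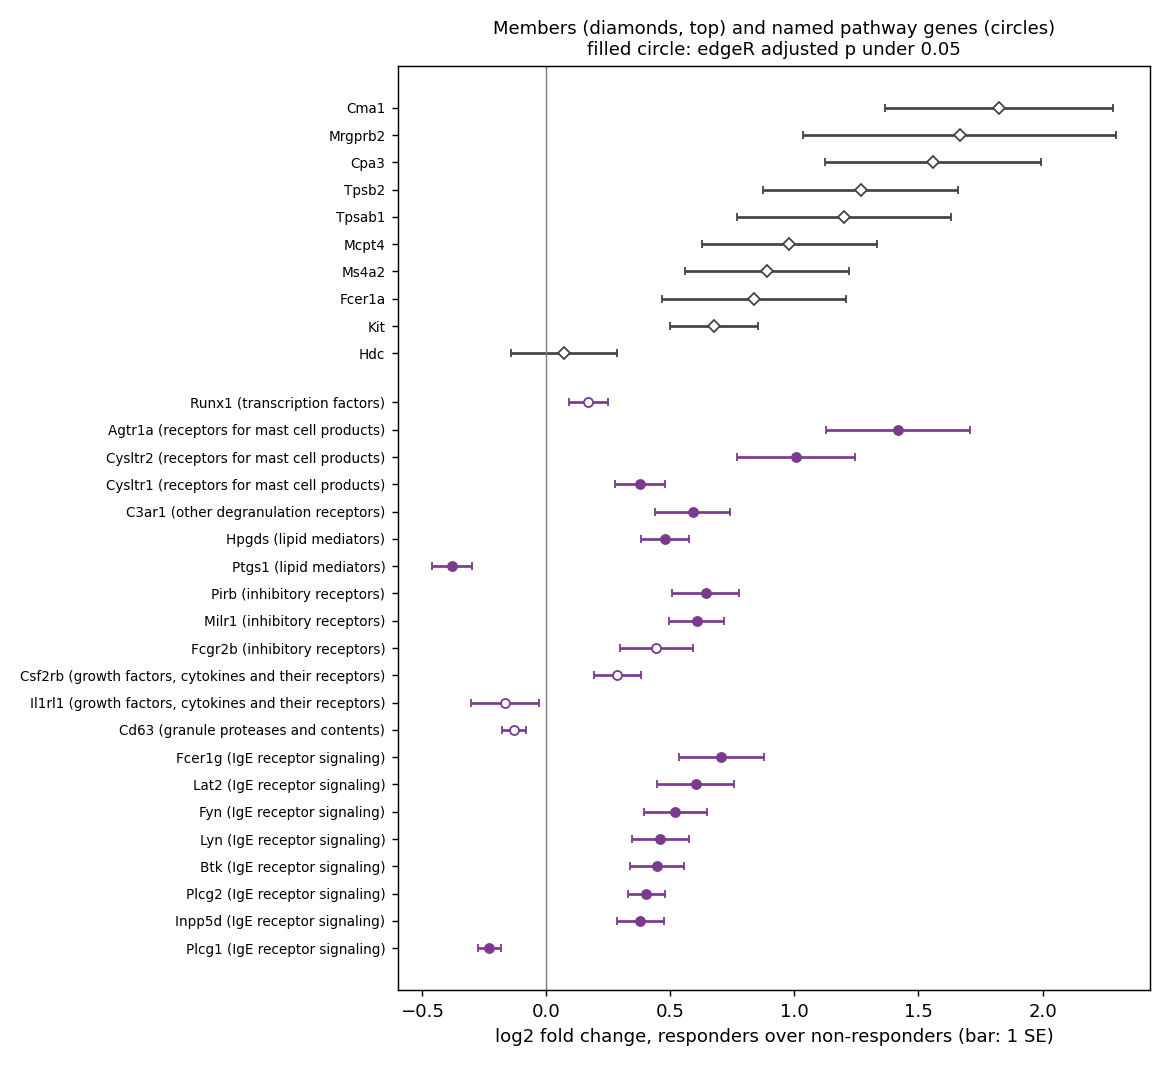
Log2 fold change of responders over non-responders with a bar of 1 SE, for the 10 members (diamonds, chosen on this contrast and shown with no p) and 21 named pathway genes (circles, filled where the edgeR adjusted p was under 0.05). Member values run from 0.07 for Hdc to 1.82 for Cma1, while the called pathway genes other than Agtr1a and Cysltr2 lie between -0.38 and 0.71.

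Several markers of other cells moved with the members. Ptprc, which all leukocytes express, was at 326.2 to 499.3 CPM in responders and 181.1 to 307.4 CPM in non-responders (log2 fold change 0.60, adjusted p = 0.0413 by edgeR, SE 0.15). The summed level of 5 macrophage markers was 1777 to 2596 CPM and 1405 to 1756 CPM, with 3 of 5 genes called higher by edgeR and by DESeq2, Adgre1, Cd68 and C1qa. Csf1r and Mrc1 were not called, with log2 fold changes of 0.24 and -0.13. The 6 skeletal muscle markers summed to 415.2 to 1289 CPM in responders and 362.8 to 489.2 CPM in non-responders, with Acta1 and Ckm called higher by edgeR and 5 of 6 genes called by DESeq2, and responders 5 and 3 were the highest for them as for the proteases. The 7 adipocyte markers summed to 39.1 to 84.6 CPM and 27.4 to 41.2 CPM, with Pparg called higher by edgeR. All 6 adipocyte genes tested had an unadjusted p under 0.05 and were called by DESeq2. Such a p was found for 4665 of all 16041 genes, and DESeq2 called 2584 genes. The log2 fold changes of Adipoq, Cidec and Plin1 were 2.33, 2.17 and 1.93. The 3 basophil markers summed to 1.39 to 3.68 CPM and 0.929 to 2.84 CPM, with 0 of 2 genes tested called by edgeR, by DESeq2 or at an unadjusted p under 0.05, and Prss34 at no more than 0.0624 CPM in any tumor, below the level of 3 counts. The part of these cells and of the tissue cut in the members' values was not tested.

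Kit and the summed proteases were set over Ptprc, and the other members were not. Kit was at 3.41 ± 0.536 CPM per 100 CPM of Ptprc in responders (SD, n = 6) and at 3.25 ± 0.159 in non-responders (SD, n = 4). The 5 proteases summed to 27.9 ± 10.7 CPM per 100 CPM of Ptprc in responders and 18.7 ± 5.23 in non-responders, with only 3 of 6 responders past the highest non-responder. The medians were 23.8 in responders and 19.1 in non-responders, and responder 5 was the highest tumor at 47.3. On the plain scale the protease sums were 111.4 ± 65.2 and 47.4 ± 19.8 CPM, with 5 of 6 above. These ratios were formed after the values were seen and carry no test.

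**Figure D5:**
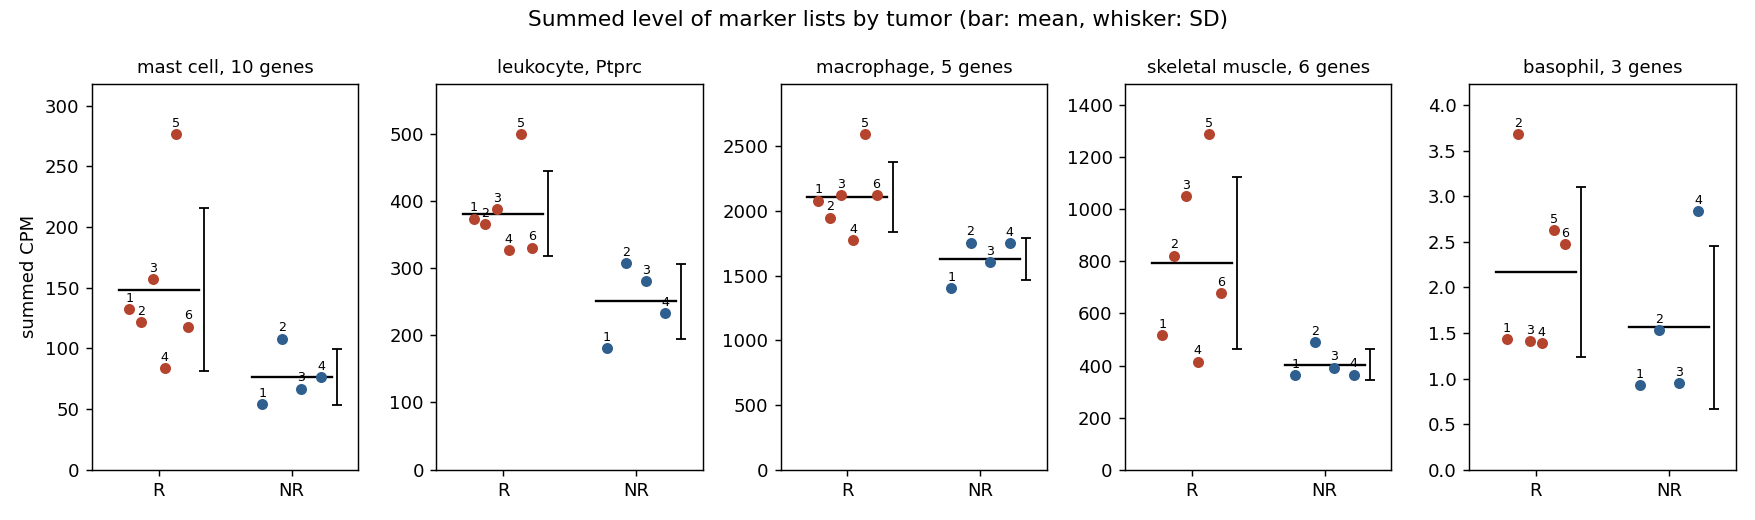
Summed CPM of the mast cell members and of 4 other marker lists in each tumor, for responders (R, n = 6) and non-responders (NR, n = 4), with points labelled by tumor number, a line at the mean and a whisker of 1 SD. Responder 5 is highest for the mast cell, leukocyte, macrophage and muscle lists, and the basophil sums reach at most 3.68 CPM.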

How the data were processed

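PolyA RNA of 10 CT26 tumors was sequenced in 150-base read pairs. The authors reviewed reads with FastQC, estimated transcript abundance with kallisto and summed it to genes with tximport on mm10 (GRCm38), and deposited expected counts (estimated counts, not scaled to depth, 45.1% of values fractional) for 36009 genes. Annotation release, tximport scaling and strandedness were not given in the sources used here. Pseudoalignment divides reads among transcripts with shared sequence, which touches Cma1 and Mcpt4 most.

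Groups were taken from the response label. Tumor numbers follow accession order and pair nothing, no batch is labelled, and the labels give 1 sample per tumor. Members, gene lists and tests were chosen with earlier results of these data known.

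Rounded counts were fitted with edgeR 4.0.16 in R 4.3.3 (filterByExpr with minimum count 10 and minimum total count 15, TMM, quasi-likelihood test, two-sided, Benjamini-Hochberg adjustment over 16041 genes, threshold 0.05), and log2 CPM took a prior count of 2. Each SE is the estimate over the square root of its F statistic. The test was checked on simulated data with independent genes and planted changes larger than those of the called pathway genes, so smaller changes were not checked. DESeq2 1.42.0, its size factors in edgeR, other filters, summed gene pairs, another gene length and leaving out each tumor were alternatives.

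Named genes were all members, the pathway genes that passed (at most the 15 with the smallest p), in each pathway group the gene with the highest level and that with the smallest p, the 10 genes most like the members among those of at least 1 CPM, and neighbours in the chymase cluster of at least 1 CPM. Gm48934, Cma2, Mcpt9, Mcpt8, Syk, Gab2, Lat, Cd300a, Lilrb4a, Pla2g4a, Mrgprb1 and some others were named after their values were seen, and 1 pathway gene is not reported here by name. Where 2 rows bore a symbol, the one with the higher mean was used. Positions and transcript lengths are from GENCODE M21 on GRCm38, and shared sequence was counted in 31-base words.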

Additional observations from a re-analysis of the deposited data

Results flagged for a closer look

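A tumor lay apart from its own group in 3 of 88 sets of values, where chance gives about 4.4, and none of them was a member. Non-responder 1 was far below the other 3 non-responders for Btk, at 3.61 log2 CPM, with a gap to the next tumor of 0.856 of the group's range. It was likewise below them for Fyn, at 4.47 log2 CPM and a gap of 0.931 of the range. Non-responder 2 was far above the others in the summed skin keratinocyte markers, at 8.21 CPM and a gap of 0.915 of the range, with Krt5 at 3.10 CPM and Krt14 at 2.17 CPM, where no responder exceeded 0.0666 CPM for either gene. Non-responder 2 was also the non-responder with the most RNA of Cma1, Mcpt4, Cpa3 and both tryptases, and whether skin in that piece bears on these levels was not tested.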

How the results depend on the processing

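Without any 1 tumor, the count of genes called ran from 0 to 1897, of members called from 0 to 5, of pathway genes higher from 0 to 23 and lower from 0 to 2, of neighbouring members that differ in level from 6 to 8, and of genes kept among the 10 most like the members from 4 to 8. No gene passed by edgeR without non-responder 4, where 4106 had an unadjusted p under 0.05. DESeq2 called 2584 genes against 1293 by edgeR, and 5 members against 2. Spearman's correlation kept 0 of the 10 genes most like the members, and the 8 tumors other than responder 5 and non-responder 1, an alternative chosen after seeing the data, kept 3. The other settings left these counts within 1.5 times. All 144 alternative fold changes of members moved by less than the SD within groups, Cma1 between 1.40 and 2.02 and Hdc between -0.04 and 0.16 without any 1 tumor. Of 294 alternative values of named pathway genes, 189 kept their side of the threshold, 101 lost it, 4 gained it and none reversed. No paired analysis was possible because the tumor numbers follow accession order and link no tumors across groups. Depth limits Mrgprb2, Fcer1a and Ms4a2 most.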

Other observations

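Other granulocyte, stromal and epithelial markers were measured in the same tumors. Pecam1, an endothelial adhesion molecule, and Csf3r, the neutrophil growth factor receptor, were highest in responder 5 and lowest in non-responder 1, as most members were, with log2 fold changes of 0.43 (adjusted p = 0.184 by edgeR) and 0.42 (adjusted p = 0.136 by edgeR). The 4 eosinophil markers summed to 1.24 to 4.84 CPM in responders and 3.03 to 4.98 CPM in non-responders, with Epx, the eosinophil peroxidase, at no more than 0.0603 CPM. The 4 neutrophil markers summed to 74.8 to 153.6 CPM and 57.9 to 125.3 CPM, the 5 fibroblast markers to 3384 to 3948 CPM and 2866 to 4210 CPM, the 3 endothelial markers to 81.9 to 136.5 CPM and 64.4 to 98.9 CPM, the 4 melanocyte markers to 1.90 to 3.10 CPM and 1.66 to 2.65 CPM, and the 7 colorectal epithelial markers to 3.50 to 8.18 CPM and 7.07 to 9.49 CPM. Of the 19 genes of these 6 lists that could be tested, edgeR called 0 at an adjusted p under 0.05. An unadjusted p under 0.05 was found for 3 of them, against 4665 of all 16041 genes. DESeq2 called 1, the intestinal transcription factor gene Cdx2, and 2584 of all genes.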
